A study of Mus musculus with 11 samples.

Results

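The expression of 6 receptor and channel genes was followed through the hair cells (HCs) of the developing mouse cochlea: Chrna9, Chrna10, Chrna1, Chrnb1, Kcnn2 and Htr3a. They were chosen by name, not by a measured value, but with earlier results of these data known. They are 6 of the 24898 genes that have a row at any age. At E16 and P1 all 6 had a row, at P7 5 did (Htr3a did not), and at E14 4 did (Chrna10 and Chrna1 did not). The cells came from wild type CD1 mice, from the sensory epithelium on the floor of the cochlear duct, captured on the 10X Chromium platform, which counts 1 tag per mRNA molecule (a unique molecular identifier, UMI) at the 3' end. The groups are 4 ages with no treatment and no transgene: embryonic day (E) 14 with 2 libraries, E16 with 3, postnatal day (P) 1 with 4 and P7 with 2, the last carrying the replicate numbers 4 and 5. The study's methods describe pooling the cochleae of several littermates of either sex for each capture, so a library is a pool and n below counts pools. Each age was in a table of its own that was normalized separately, so levels at different ages are set side by side and no test was run between ages.

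Chrna9 and Chrna10 encode the alpha 9 and alpha 10 subunits of the nicotinic acetylcholine receptor through which efferent neurons of the brainstem inhibit HCs. The receptor lets in calcium, which opens the small-conductance calcium-activated potassium channel SK2, the product of Kcnn2, and the cell hyperpolarizes. In the rodent cochlea these efferent fibres contact the inner hair cells (IHCs) before the onset of hearing and afterwards mainly the outer hair cells (OHCs). Chrna1 and Chrnb1 encode the alpha 1 and beta 1 subunits of the nicotinic receptor of skeletal muscle, which in the fetal form also holds the gamma subunit, encoded by Chrng. Htr3a encodes the A subunit of the serotonin-gated cation channel, another member of the same superfamily of ligand-gated channels.

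On the mouse build GRCm38 (mm10), the build of the deposited values, the GENCODE vM21 annotation places Chrna9 (ENSMUSG00000029205.12) at chr5:65934921-65977326 on the plus strand and Chrna10 (ENSMUSG00000066279.3) at chr7:102111266-102116828 on the minus strand. Chrna1 (ENSMUSG00000027107.3) is at chr2:73563215-73580338 on the minus strand, Chrnb1 (ENSMUSG00000041189.9) at chr11:69784036-69795943 on the minus strand, and Htr3a (ENSMUSG00000032269.8) at chr9:48899213-48911099 on the minus strand. These genes and Kcnn2 are protein-coding. Chrna9 overlaps the genes 4930480C01Rik and Gm43771 on its own strand, where reads could be split between genes, so its absolute level is uncertain. The 250 bases before the RefSeq start are shown for the 4 nicotinic subunits, because 3 of them were far higher in HCs than in other cells and the fourth, Chrnb1, was not. Capitals mark CAGCTG, a palindromic E-box of the type bound by basic helix-loop-helix factors such as Atoh1 (HCs) and Myod1 (muscle). The table held 4 of the 6 genes; Kcnn2 and Htr3a are named only. The regions are chr5:65966874-65967123 (plus), chr7:102116714-102116963 (minus), chr2:73580339-73580588 (minus) and chr11:69795938-69796187 (minus), from RefSeq on GRCm38.p6, each written 5' to 3' on the strand of its gene.
Chrna9: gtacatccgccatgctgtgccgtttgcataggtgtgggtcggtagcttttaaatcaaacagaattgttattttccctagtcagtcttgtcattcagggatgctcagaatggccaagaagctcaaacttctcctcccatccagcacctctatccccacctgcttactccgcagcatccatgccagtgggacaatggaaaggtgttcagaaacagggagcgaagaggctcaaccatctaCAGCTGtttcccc
Chrna10: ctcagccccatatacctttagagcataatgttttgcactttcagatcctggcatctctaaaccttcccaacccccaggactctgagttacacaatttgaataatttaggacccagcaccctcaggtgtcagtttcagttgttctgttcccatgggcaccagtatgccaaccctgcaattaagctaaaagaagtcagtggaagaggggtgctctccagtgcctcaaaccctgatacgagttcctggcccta
Chrna1: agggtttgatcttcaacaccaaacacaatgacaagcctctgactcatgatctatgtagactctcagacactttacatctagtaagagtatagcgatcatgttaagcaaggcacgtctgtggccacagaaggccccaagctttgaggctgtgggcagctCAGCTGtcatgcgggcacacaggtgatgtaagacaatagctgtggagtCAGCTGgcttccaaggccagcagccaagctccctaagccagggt
Chrnb1: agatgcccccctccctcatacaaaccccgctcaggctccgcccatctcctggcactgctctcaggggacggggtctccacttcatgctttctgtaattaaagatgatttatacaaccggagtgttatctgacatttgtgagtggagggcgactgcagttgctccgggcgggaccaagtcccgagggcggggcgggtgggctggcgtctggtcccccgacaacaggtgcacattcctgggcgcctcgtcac

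Chrna9 held 1 CAGCTG, 13 bases before the start, and Chrna1 held 2, at 92 and 44 bases before the start, whereas Chrna10 and Chrnb1 held none. The starts are those of RefSeq. The Chrna9 window (chr5:65966874-65967123) lies wholly inside the GENCODE interval of the gene (chr5:65934921-65977326). CAGCTG was present in 13.0% of all 32851 windows of this length. A second E-box, CAGATG, searched on both strands, was in none of the 4 windows and in 14.4% of all windows. A match is a run of letters and not a measured binding site, and no match of one motif overlapped a match of the other.

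To place the genes in cell types, cells were gated on markers that hold none of the 6 genes. A cell was called an HC when 18 HC genes, among them Myo6, Myo7a, Pou4f3 and Pvalb, made up at least 40 of every 10000 UMIs. An HC was called an IHC or an OHC when the UMIs of 9 IHC genes (Fgf8, Tbx2, Slc17a8 and others) or of 11 OHC genes (Insm1, Neurod6, Ikzf2, Slc26a5 and others) numbered at least 2 and at least 2 times those of the other list. From the youngest age to the oldest the gate gave 56, 600, 1058 and 275 HCs, against 5197, 7361, 12985 and 3102 other cells. HCs had a median of 8, 11, 16 and 11 of the gate genes detected at these ages, and other cells 0, 0, 1 and 1. Cells just under the limit numbered 16, 25, 6 and 10, and cells just over it 12, 12, 6 and 9, so at E14 12 of the 56 HCs lay near it. IHCs numbered 23, 129, 203 and 78 and OHCs 4, 155, 712 and 180. At E14 the OHCs were therefore too few to describe, and at E16 316 of the HCs passed neither type gate and were left untyped.

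**Figure D1:**
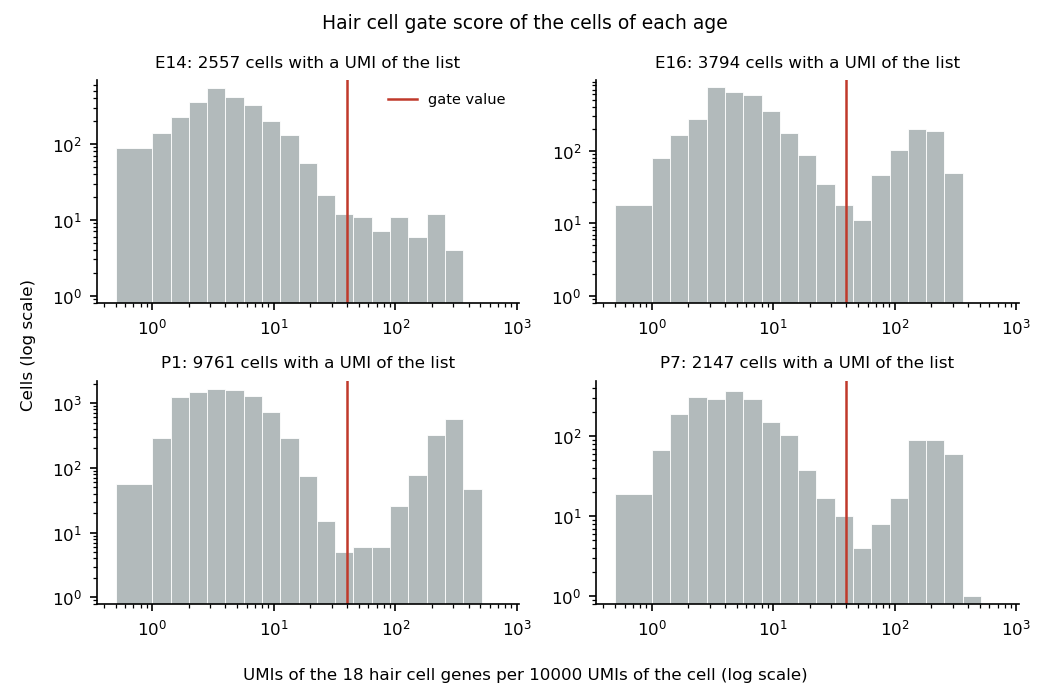
Number of cells (log axis) by the UMIs of the 18 HC genes per 10000 UMIs of the cell, 1 panel per age, with the gate drawn as a line. At E16, P1 and P7 HCs form a separate hump to the right of the line at 40, with 6 cells just under and 6 just over it at P1, while the 56 HCs of E14 form a shoulder without a clear gap.

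The 11 libraries held 3828399 to 23523802 UMIs, with medians of 2478 to 5647.5 UMIs per cell. Between 9 and 62 cell barcodes of a library also occurred in another library of the same age. HCs were the deeper cells in most libraries: their median was 5335.5 to 9631.5 UMIs at P1 against 3753.5 to 5547.5 in other cells, and 2413 against 2512 in the first E16 library, the one where HCs were the shallower cells. The share of cells that were HCs ran from 3.87% to 14.7% across the E16 libraries. Levels below are means over cells of the UMIs of a gene per 1000000 UMIs (CPM), given per library in replicate order. They are given between cell classes for 1 gene at a time and not between genes. Markers of supporting and Kölliker's organ cells summed to 587 to 1518 CPM in P1 HCs and 10272 to 13542 CPM in the other cells; their part in the results was not tested.

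Chrna9 was low at E14 and abundant in HCs from E16 on. At E14 it stood at 3.30 and 25.4 CPM in HCs, from 1 and 5 UMIs, and at 0.189 and 0 CPM in other cells. At E16 HCs held 93.9, 107 and 184 CPM and other cells 0.142, 0.226 and 0.382 CPM. In the first of these libraries 21 of the 43 HC UMIs lay in 1 cell. The groups did not overlap, and the log2 difference on the scale of log2(CPM + 10), used throughout, was 3.70 ± 0.21 (SE, n = 3 libraries; limma with the library as a block, Benjamini-Hochberg adjusted p = 5.96e-12). At P1 HCs stood at 297, 281, 308 and 303 CPM, a narrow range, and other cells at 0.165 to 1.23 CPM, a log2 difference of 4.85 ± 0.10 (limma adjusted p = 1.17e-09). At P7 HCs stood at 314 and 288 CPM against 1.52 and 1.44 CPM (4.76 ± 0.20, limma adjusted p = 6.80e-26). At P7, as at E14, 2 libraries leave 1 residual degree of freedom, so the spread behind that p was borrowed almost wholly from the other genes.

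Chrna10 was present in HCs at each age at which it had a row. E16 HCs held 56.0, 67.5 and 86.3 CPM and other cells 1.82, 0.427 and 0.579 CPM (log2 difference 2.85 ± 0.21, n = 3, limma adjusted p = 4.36e-10). At P1 HCs held 236, 253, 235 and 123 CPM, the fourth library lying apart from the other 3, and other cells held 0.582 to 1.22 CPM (4.31 ± 0.17, n = 4, limma adjusted p = 2.48e-08). At P7 HCs held 298 and 331 CPM against 0.791 and 0.153 CPM (4.95 ± 0.20, n = 2, limma adjusted p = 1.69e-26). Side by side, the mean of Chrna9 in HCs was 14.3, 128, 297 and 301 CPM from E14 to P7, and that of Chrna10 was 69.9, 212 and 315 CPM from E16 to P7.

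The muscle-type subunit Chrna1 was near 0 at E16 and abundant in HCs after birth. At E16 it stood at 0, 2.01 and 5.74 CPM in HCs, from 6 UMIs in 600 cells, and other cells held a single UMI in all. It was too low there for the test, which left out genes averaging under 10 CPM over the 2 classes. At P1 HCs held 173, 78.4, 71.6 and 61.5 CPM and other cells 0.969, 0.221, 0 and 0.137 CPM. All 4 HC values lay far above all 4 of the others (log2 difference 3.25 ± 0.19, n = 4, limma adjusted p = 2.87e-07), and the first library stood more than 2-fold above the next. At P7 HCs held 146 and 131 CPM against 0.310 and 0.430 CPM (3.84 ± 0.21, n = 2, limma adjusted p = 4.62e-21).

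Chrnb1, the subunit that joins alpha 1 in the muscle receptor, did not follow Chrna1. It stood at 13.6 and 46.6 CPM in E14 HCs, from 9 UMIs, and at 6.44 and 6.82 CPM in other cells (1.14 ± 0.50, n = 2, limma adjusted p = 0.148), a difference of 1.75 without the first library and 0.52 without the second. At E16 HCs held 7.03, 18.7 and 26.8 CPM and other cells 7.49, 6.32 and 8.64 CPM (0.58 ± 0.23, n = 3, limma adjusted p = 0.0502). That difference was 0.47 to 0.90 with a library left out. Over the alternatives its limma adjusted p ran from 0.00298 to 0.275, so some of them called it. At P1 the classes overlapped, with 4.31, 11.0, 13.8 and 14.3 CPM in HCs and 9.71, 14.6, 10.2 and 14.1 CPM in other cells (-0.11 ± 0.14, n = 4, limma adjusted p = 0.519). At P7 HCs held 1 UMI in each library, or 1.03 and 0.506 CPM, and other cells 5.60 and 3.32 CPM, below the level tested. Chrnb1 was thus detected in cells of either kind, and P7 HCs, in which Chrna1 stood at 146 and 131 CPM, held 2 of its UMIs in 275 cells.

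Kcnn2, the SK2 channel gene (ENSMUSG00000054477.16, chr18:45268860-45686024, plus strand), was low in HCs before birth and well above the level of other cells in postnatal HCs. HCs held 2.91 and 3.48 CPM at E14, against 2.66 and 1.97 CPM in other cells. At E16 HCs held 6.93, 10.6 and 3.88 CPM against 3.76, 2.08 and 3.15 CPM, higher in 3 of 3 libraries but still below the level tested. At P1 HCs held 60.3, 46.2, 42.2 and 51.7 CPM and other cells 1.71 to 2.98 CPM (log2 difference 2.27 ± 0.12, n = 4, limma adjusted p = 1.69e-07). At P7 HCs held 150.4 and 136 CPM against 4.12 and 5.75 CPM (3.36 ± 0.21, n = 2, limma adjusted p = 2.16e-19). Chrna9 and Chrna10 were clearly above background in E16 HCs. Kcnn2 averaged 7.14 CPM there from 17 UMIs, too few to place its onset against theirs.

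Htr3a was low at E14, with 1 UMI in 56 HCs, and stood at 15.5, 10.4 and 12.5 CPM in E16 HCs against 0.551, 1.5 and 0.526 CPM in other cells, higher in 3 of 3 libraries but below the level tested. With no filter on low values it was tested and called (1.07, limma adjusted p = 0.0255). At P1 HCs held 30.3, 46.4, 61.2 and 31.4 CPM and other cells 0.505 to 1.15 CPM (2.22 ± 0.16, n = 4, limma adjusted p = 1.03e-06).

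**Figure D2:**
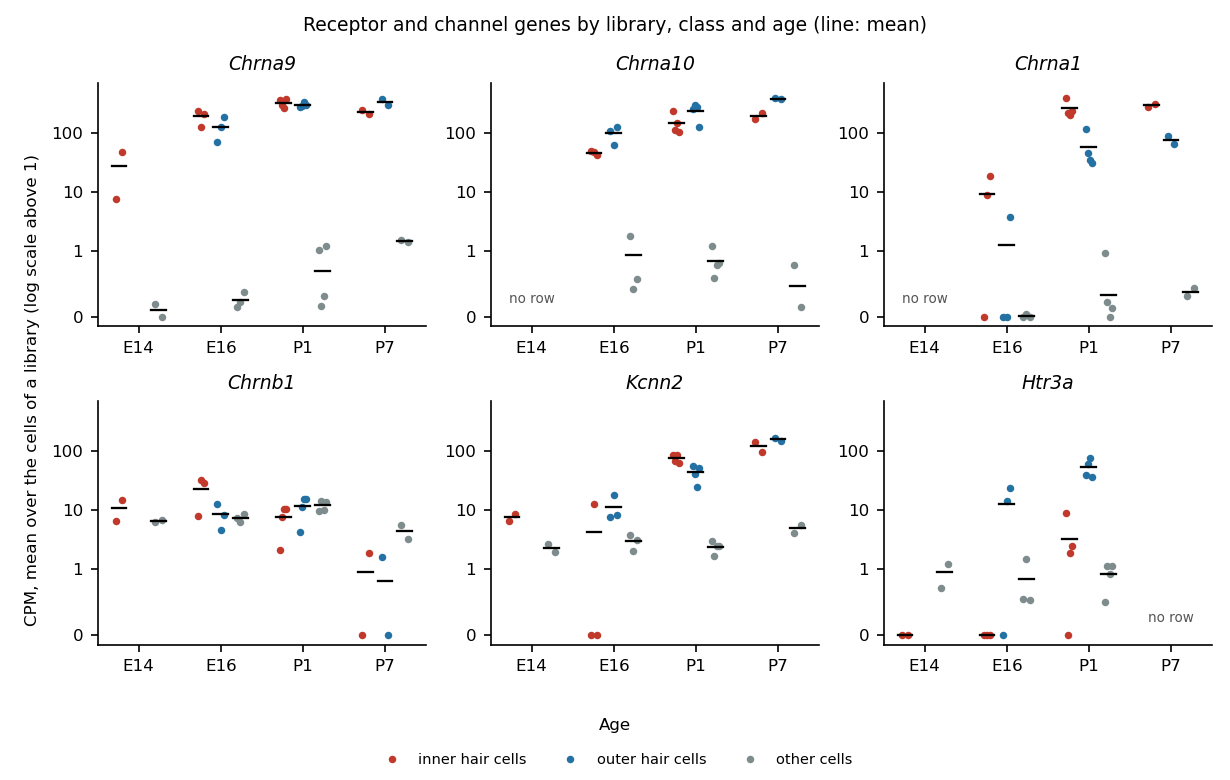
CPM of each of the 6 genes (1 point per library, bar at the mean, axis logarithmic above 1 CPM) in IHCs, OHCs and other cells at the 4 ages. Chrna1 points of IHCs lie above those of OHCs at P1 and P7, and Htr3a points of OHCs lie above those of IHCs at P1, while Chrnb1 points of IHCs and OHCs lie near or below those of other cells at P1 and P7.

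By age, the 1 gene tested at E14 was not called higher in HCs (4.67% of all genes tested were called higher there), 2 of 3 at E16 (20.0%), 5 of 6 at P1 (40.3%) and 4 of 4 at P7 (35.6%); none was called lower by limma, at an adjusted or an unadjusted p under 0.05 (6.60%, 20.4%, 28.9% and 28.8% of all genes tested). At E14 the gene tested, Chrnb1, had an unadjusted p under 0.05. The genes called at E16, P1 and P7 averaged 0.25 to 4.93 CPM in other cells and so passed the 10 CPM filter through HCs alone, which fixed the direction of these counts; nothing is read from them. At P7 Htr3a had no row and Chrnb1 was below the level tested. None of these calls at E16, P1 or P7 was lost under any alternative. The alternatives other than no filter kept the 10 CPM filter, so the direction of the calls was fixed there too. A class mean does not separate more cells with the mRNA from more mRNA per cell, so the share of cells with a UMI is given next, for IHCs and OHCs.

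With each cell drawn down to 1500 UMIs, Chrna9 was detected in 38.4% of P1 IHCs (exact 95% interval 31.7% to 45.5%), in 35.4% of OHCs (31.9% to 39.0%) and in 0.146% of other cells. The share in other cells, with a median depth of 3753.5 to 5547.5 UMIs before the draw-down, is taken as the background. Chrna1 was detected in 33.5% of P1 IHCs (27.0% to 40.4%), in 7.16% of OHCs (5.38% to 9.31%) and in 0.0308% of other cells. These intervals pool the cells of 4 libraries and leave out the spread between libraries, so the library shares are given too. For Chrna1 they ran from 30% to 40.4% in P1 IHCs and from 3.56% to 15.8% in OHCs. For Chrna9 they ran from 22% to 48.1% in P1 IHCs and from 29.9% to 37.4% in OHCs. The library ranges of IHCs and OHCs lie apart for Chrna1 and overlap for Chrna9, as do the intervals. Htr3a was detected in 0 of 203 P1 IHCs, for which the exact 95% interval of cells with a UMI at this depth reaches 1.80%, in 6.74% of OHCs (5.01% to 8.84%) and in 0.123% of other cells. Without the draw-down the shares in IHCs and OHCs were 78.8% and 71.3% for Chrna9, 70.4% and 22.2% for Chrna1, and 1.97% and 23.3% for Htr3a. Chrnb1 was detected in 0.985% of P1 IHCs, 1.69% of OHCs and 1.70% of other cells, or 4.43%, 7.16% and 5.31% without the draw-down. For this gene other cells are no background, since some of their clusters held more of it than the rest. The same holds for Htr3a, as a cluster led by Npy held 25 of its UMIs in 188 cells, where all other cells held 65. Chrna10 was detected in 20.7% of P1 IHCs and 26.0% of OHCs, and Kcnn2 in 10.3% and 5.48%, against 0.131% and 0.385% of other cells.

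At P7 the shares in IHCs and OHCs were 26.9% and 33.9% for Chrna9, 21.8% (13.2% to 32.6%) and 48.3% (40.8% to 55.9%) for Chrna10, 32.1% and 11.1% for Chrna1, and 17.9% and 17.2% for Kcnn2. At E16 Chrna9 was detected in 12.4% of IHCs (7.26% to 19.4%) and 24.5% of OHCs (17.97% to 32.1%), the reverse of the order of the mean levels, so no order is read from either, and Chrna10 in 6.98% and 15.5%. The intervals cover counting error only.

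IHCs and OHCs were then compared within libraries. Neuron markers moved with this comparison, at 851 to 1030 CPM in IHCs against 175 to 385 CPM in OHCs at E16, 647 to 1854 against 527 to 899 at P1, and 501 to 764 against 135 to 151 at P7, higher in IHCs in every library, with 3 or 4 of the 5 or 6 markers detected in IHCs. These markers include Nefl and Nefm, which were among the leading genes of the E16 HC cluster led by Fgf8 and Pvalb. Nefl was also among those of the P1 HC cluster led by Fgf8 and Cabp2. The sum is therefore not a measure of neurons alone. The part of these markers in the differences below was not tested. Chrna1 was higher in IHCs after birth. In P1 IHCs it stood at 384, 218, 203 and 234 CPM, and in OHCs at 118, 45.6, 34.2 and 30.4 CPM. Every IHC value was above every OHC value, a log2 difference of 2.13 ± 0.16 (n = 4, limma adjusted p = 9.86e-11). At P7 IHCs held 279 and 309.9 CPM and OHCs 89.6 and 64.0 CPM (1.82 ± 0.24, n = 2, limma adjusted p = 1.22e-09). At E16 IHCs held 0, 8.76 and 18.6 CPM and OHCs 0, 0 and 3.82 CPM, from 5 UMIs and 1 UMI, below the level tested. At both postnatal ages the call was lost in the alternative that tested every gene with no filter on low values (adjusted p = 0.0870 at P1, with a range over the alternatives of 9.31e-16 to 0.0870, and 0.518 at P7, with a range of 6.33e-14 to 0.518).

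Htr3a went the other way. P1 IHCs held 8.93, 0, 1.88 and 2.45 CPM, from 5 UMIs in 203 cells, and OHCs held 39.1, 59.9, 78.1 and 36.7 CPM. No IHC value reached the lowest OHC value (log2 difference -2.24 ± 0.27, n = 4, limma adjusted p = 5.68e-07). Htr3a averaged 3.31 CPM in IHCs and so passed the 10 CPM filter through OHCs alone, which fixed the direction of this call. The call was lost only with no filter on low values, where the adjusted p was 0.159 (range over the alternatives 9.20e-09 to 0.159). At E16 the 129 IHCs held no Htr3a UMI, where 3 UMIs over the class would have been 5.73 CPM, and OHCs held 0, 14.6 and 23.6 CPM, from 4 and 8 UMIs in the last 2 libraries, so 1 of the 3 OHC libraries was at 0 as well. The untyped E16 HCs averaged 13.8 CPM.

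Chrna10 was lower in IHCs after birth. P1 IHCs held 234, 112, 148 and 103 CPM and OHCs 250.5, 299, 270.1 and 127 CPM. IHCs were lower in 4 of 4 libraries though the ranges overlap, and the log2 difference was -0.63 ± 0.16 (n = 4, limma adjusted p = 0.00663). At P7 IHCs held 173 and 219 CPM and OHCs 390.5 and 369 CPM, which do not overlap (-0.93 ± 0.20, n = 2, limma adjusted p = 0.000182). At E16 IHCs held 49.5, 47.3 and 42.3 CPM and OHCs 106, 63.0 and 128 CPM, lower in 3 of 3 libraries (-0.90 ± 0.42, limma adjusted p = 0.530). The P1 call was lost without the second library (-0.40, adjusted p = 0.146), without mixed and large cells (0.185), with no filter (0.482) and without the library block (0.577), in a range of 0.00101 to 0.577, and the P7 call without the block (0.0852) and with no filter (0.555), in a range of 2.55e-05 to 0.555.

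Chrna9 showed no such split at P1. IHCs held 365, 294, 264 and 372 CPM and OHCs 275, 285, 334 and 292 CPM, with overlap and a log2 difference of 0.11 ± 0.12 (n = 4, limma adjusted p = 0.650). This difference was 0.016 to 0.26 with a library left out and turned direction without mixed and large cells. At P7 IHCs held 241 and 206 CPM and OHCs 369.6 and 294 CPM (-0.55 ± 0.20, n = 2, limma adjusted p = 0.0495). That call sits at the threshold and was lost under 6 alternatives, in a range of 0.0356 to 0.502. At E16 IHCs held 239, 128 and 206 CPM and OHCs 69.6, 128 and 183 CPM (0.60 ± 0.35, n = 3, limma adjusted p = 0.640). The IHC value of the first E16 library came from 21 UMIs in 1 of its 36 IHCs, and the difference was 0.0818 without that library. The second library held the same level in both types, and the direction turned in 2 alternatives (-0.0617 and -1.22).

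Kcnn2 was higher in P1 IHCs, with 85.5, 68.7, 87.2 and 64.1 CPM against 56.4, 42.0, 25.1 and 52.2 CPM in OHCs. The ranges do not overlap (log2 difference 0.71 ± 0.20, n = 4, limma adjusted p = 0.0202). At P7 IHCs held 145 and 97.0 CPM and OHCs 169 and 152 CPM, lower in IHCs in 2 of 2 libraries (-0.40 ± 0.25, limma adjusted p = 0.348). The P7 difference was -0.60 or -0.21 with a library left out. The P1 call was lost without the first library (adjusted p = 0.0557), without the third (a difference of 0.46, adjusted p = 0.257), without mixed and large cells (0.225), with no filter and with no block, in a range of 0.00596 to 0.410. At E16 Kcnn2 stood at 0, 12.7 and 0 CPM in IHCs and 7.64, 18.2 and 8.24 CPM in OHCs, from 4 and 7 UMIs. Chrnb1 averaged under the level tested over the 2 types at P1. There IHCs held 2.1, 7.83, 10.5 and 10.4 CPM and OHCs 4.25, 11.3, 15.6 and 15.6 CPM, lower in IHCs in 4 of 4 libraries. At E16 Chrnb1 stood at 7.91, 32.5 and 28.7 CPM in IHCs and 12.9, 4.66 and 8.36 CPM in OHCs (0.75 ± 0.60, limma adjusted p = 0.747). With a library left out that difference ran from 0.36 to 1.31.

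Between IHCs and OHCs, 0 of 3 genes tested were called at E16 by limma (0.516% of all genes tested were called higher in IHCs and 0.321% lower), and 1, Chrna10, had an unadjusted p under 0.05. At P1 2 of 5 were called higher in IHCs, Chrna1 and Kcnn2 (4.79%), and 2 lower, Chrna10 and Htr3a (6.13%). The filter fixed the direction of Htr3a. At P7 1 of 4 was higher, Chrna1 (6.26%), and 2 lower, Chrna9 and Chrna10 (7.27%). In order of level, Chrna9 ran from P7 OHCs (332 CPM), P1 IHCs (324), P1 OHCs (297), P7 IHCs (224) and E16 IHCs (191) to E16 OHCs (127), with each neighbour within the spread of the next except P1 OHCs and P7 IHCs. Chrna1 ran from P7 IHCs (295 CPM) and P1 IHCs (259.6) to P7 OHCs (76.8) and P1 OHCs (57.1), with the 2 IHC groups within each other's spread and the 2 OHC groups likewise. For Chrna10 the order was P7 OHCs (379.7 CPM), P1 OHCs (237), P7 IHCs (196), P1 IHCs (149), E16 OHCs (99.0) and E16 IHCs (46.4), where P1 OHCs and both postnatal IHC groups overlap, as do P1 IHCs and E16 OHCs. For Kcnn2 it was P7 OHCs (160.4 CPM), P7 IHCs (121), P1 IHCs (76.4) and P1 OHCs (43.9), where the P7 groups do not differ beyond their spread.

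**Figure D3:**
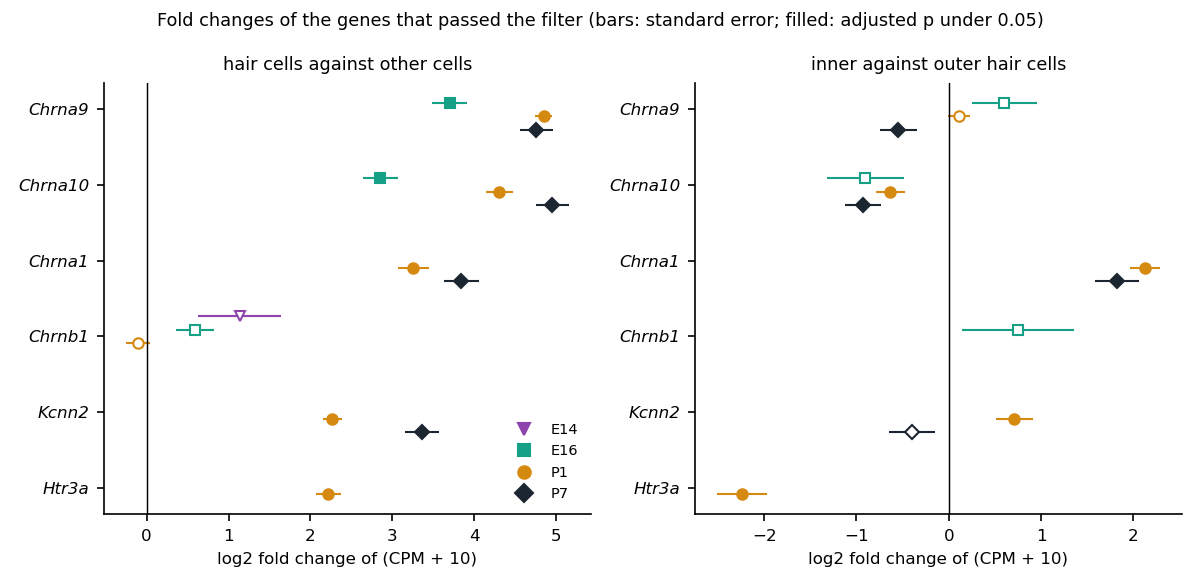
Log2 difference in log2(CPM + 10) for each gene tested, with its standard error as a bar, for HCs against other cells and for IHCs against OHCs at each age. At P1 Chrna1 lies at 2.13 and Htr3a at -2.24 between IHCs and OHCs, on opposite sides of 0, and Chrna9 lies at 0.11.

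OHCs of 1 age differ in maturity along the duct. The P1 OHCs of each library were split at the median of the summed share of Atoh1, Insm1, Neurod6 and Hes6, genes of early HC differentiation, into 354 immature and 358 later cells. The classes are ranges of a score and not cell types, and the 4 genes hold none of the 6 followed here. Immature and later are names for a high and a low score, and their order in time was not tested. The paper's OHC trajectory has a phase with Sox2 before the phase with Atoh1 and Insm1. A low score can therefore also take in OHCs of that earlier phase. Chrna9 stood at 381, 375, 459 and 434 CPM in the immature OHCs and at 171, 198, 211 and 151 CPM in the later ones. The ranges lie far apart, a log2 difference of 1.14 ± 0.11 (n = 4, limma adjusted p = 1.07e-08), and of the alternatives run only no filter lost the call (0.161, in a range of 1.54e-12 to 0.161). Other genes moved with this split. The HC gate list holds Atoh1, 1 of the 4 genes of the split, so part of its difference was built in. Insm1 and Neurod6 of the split are in the OHC gate list. An OHC with no UMI of these had therefore passed that gate through its other genes. The OHC gate genes summed to 618 to 864 CPM in immature and 847 to 1096 CPM in later OHCs. The part of this overlap in the differences was not tested. The HC gate genes summed to 26904 to 30544 CPM in immature and 20851 to 25885 CPM in later OHCs, supporting and Kölliker's organ cell markers to 269 to 1106 against 782 to 1686 CPM, and neuron markers to 655 to 1103 against 400.2 to 703 CPM; their part in the differences was not tested. Chrna9 was the 1 gene of the 6 tested called higher in immature OHCs (7.21% of all genes tested), and 4 were called lower (7.56%).

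Chrna10 was lower in the immature OHCs, at 207, 258, 242 and 109 CPM against 293, 339.8, 298 and 146 CPM, in 4 of 4 libraries (-0.39 ± 0.11, limma adjusted p = 0.0182). The 2 subunits of the efferent receptor thus moved in opposite directions along this score. Chrna1 stood at 67.4, 29.7, 31.5 and 16.0 CPM in immature and 168, 61.2, 36.9 and 44.7 CPM in later OHCs (-0.82 ± 0.20, limma adjusted p = 0.00398). Kcnn2 stood at 43.0, 24.4, 20.1 and 39.4 CPM against 69.6, 59.3, 30.1 and 64.9 CPM (-0.65 ± 0.20, limma adjusted p = 0.0215). Both were lower in the immature cells in 4 of 4 libraries. Htr3a stood at 27.2, 51.1, 50.2 and 17.9 CPM in immature and 50.8, 68.6, 106 and 55.3 CPM in later OHCs (-0.81 ± 0.19, limma adjusted p = 0.00341). These 4 calls were lost with no filter, with no library block and without mixed and large cells. Without the first library those of Chrna10 (adjusted p = 0.0963), Chrna1 (0.0714) and Kcnn2 (0.0648) were lost too, and that of Kcnn2 also without the second (0.112) or the fourth (0.0777); over all alternatives the adjusted p ran from 0.00507 to 0.810 for Chrna10, 0.000202 to 0.579 for Chrna1, 0.0100 to 0.516 for Kcnn2 and 0.000202 to 0.388 for Htr3a. Chrnb1 stood at 6.11, 21.2, 23.7 and 16.1 CPM in immature and 2.41, 1.61, 7.66 and 15.1 CPM in later OHCs (0.70 ± 0.26, limma adjusted p = 0.0658), higher in 4 of 4 libraries; it was called with Leiden clusters as classes (0.81, adjusted p = 0.0257, in a range of 0.0257 to 0.533) and was 0.45 without the second library.

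**Figure D4:**
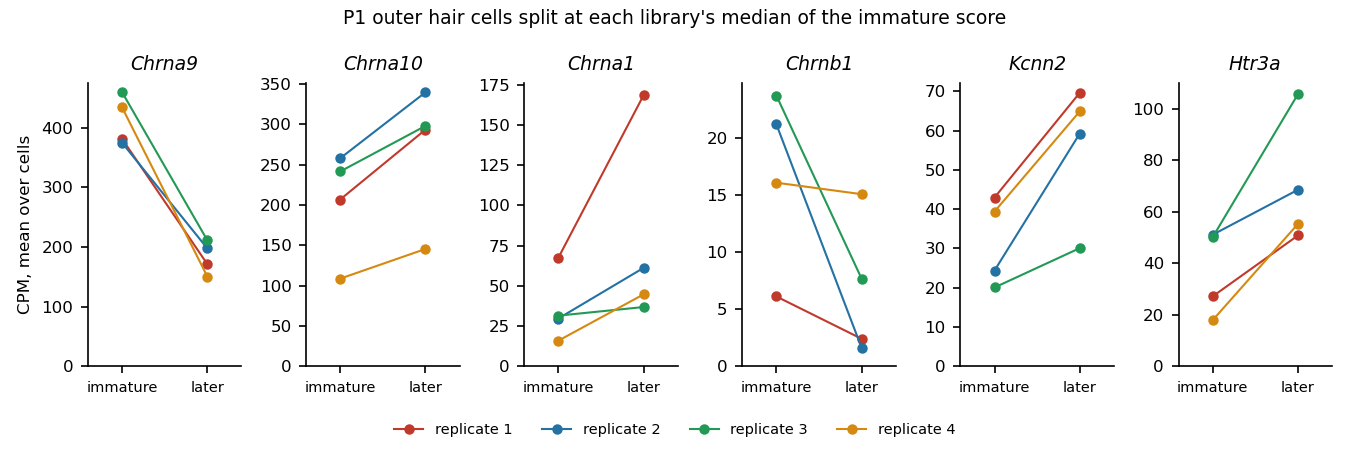
CPM of each gene in immature and later P1 OHCs, with a line joining the 2 values of a library. Lines for Chrna9 fall in all 4 libraries, from 381 to 171 CPM in the first, whereas those for Chrna10, Chrna1, Kcnn2 and Htr3a rise in all 4.

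Detection of Chrna10 was compared between HCs with and without a Chrna9 UMI. Of 508 P1 OHCs with one, 357 (70.3%) also held a Chrna10 UMI, with 45.0% to 85.7% across libraries, and of the 204 without, 127 (62.3%) did, with 47.5% to 95.7%; the share was higher with Chrna9 in 2 of 4 libraries. Of 149 P7 OHCs with a Chrna9 UMI, 136 (91.3%) held Chrna10, against 25 of 31 (80.6%) without, higher in 2 of 2 libraries. Among P1 IHCs 98 of 160 (61.25%) with Chrna9 held Chrna10, against 16 of 43 (37.2%) without, higher in 3 of 4 libraries. Among P7 IHCs it was 42 of 56 (75%) against 14 of 22 (63.6%), higher in 2 of 2. The Chrna10 level of IHCs was higher with Chrna9 in 1 of 3 libraries compared at P1 and in 1 of 2 at P7. The Chrna10 level in P1 OHCs was 116 to 294 CPM with a Chrna9 UMI and 144 to 319.7 CPM without, higher with it in 1 of 4 libraries, and in P7 OHCs 386 to 399.6 CPM against 299 to 333 CPM, higher in 2 of 2. The OHCs with Chrna9 were the deeper ones, with library medians of 5598 to 9499 against 5192.5 to 8661 UMIs at P1 and 6835 to 7099 against 6622 to 6986 at P7. P1 IHCs with Chrna9 were deeper too, at 5484 to 9926 against 4171 to 7367 UMIs. These are descriptions of cells that share libraries, and no test was run on them.

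The genes whose levels followed each member most closely were read from Pearson's r of log2(CPM + 10) over the class means of libraries, as a description in which points share libraries and depth. Over 31 values of IHCs, OHCs and other cells, Chrna9 was nearest to Ppp1r27 (r = 0.98), then to Myo7a and Pvalb, which are gate genes, and to Smpx and Gm30191. Over the 20 IHC and OHC values alone it was nearest to Cdkl2 (0.89). Chrna10 was nearest to B3gnt4 (0.97 over 27 values), with Chrna9 15th of 9268 genes (0.95), and among HC values alone to Fbxo9 (0.92), with Chrna9 932nd of 9039 genes (0.54 over 18 values). So the 2 subunits were alike in separating HCs from other cells and less alike among HC classes. Chrna1 was nearest to Snrnp25 (0.95) and, among HC values, to Tusc2 (0.94), with Calb2, which encodes the calcium buffer calretinin, at 0.93. Kcnn2 was nearest to Ppfia4 over both sets (0.96 and 0.94), and Htr3a to Wrap73 (0.91 over 25 values) and, among HC values, to B3galt5 (0.92). Chrnb1 had no gene above 0.77 (Myo5b) over all values, or above 0.80 (Dll1, the Notch ligand delta-like 1) among HC values.

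Of the 12 other nicotinic subunits, the fetal muscle gamma subunit Chrng showed the clearest pattern. It averaged 25.2 ± 2.83 CPM in E14 HCs (SD, n = 2), 85.3 ± 20.8 at E16 (n = 3) and 89.9 ± 27.5 at P1 (n = 4), against 0.833, 3.56 and 1.87 CPM in other cells. It was higher in HCs in every library of these ages (log2 differences of 1.70, 2.79 and 3.02, limma adjusted p = 0.0198, 3.53e-10 and 1.49e-07). At P7 the 275 HCs held no Chrng UMI, where 3 UMIs would have been 1.47 CPM, and other cells held 0.951 CPM. In P1 IHCs it averaged 237 CPM against 49.3 in OHCs (2.04, limma adjusted p = 7.10e-11), and in immature OHCs 90.5 against 8.59 in later ones (2.43, limma adjusted p = 1.97e-09). Chrng thus shared with Chrna1 the higher level in IHCs, differed from it in being higher in immature OHCs, and was present at E14 and E16 when Chrna1 had no row or 6 UMIs. The neuronal subunit Chrnb2 was higher in P1 HCs (21.5 against 0.157 CPM, 1.61, limma adjusted p = 4.69e-06) and P7 HCs (25.8 against 0.0408 CPM, 1.80, limma adjusted p = 1.94e-08), and Chrna3 and Chrnb4 were lower in P7 HCs (2.95 against 73.5 CPM and 2.44 against 19.9 CPM). Chrng and Chrnb2 passed the 10 CPM filter through HCs alone, and Chrna3 and Chrnb4 through other cells alone. This fixed the direction of these calls. In the OHC split Chrng passed the filter through immature OHCs alone, which fixed its direction there too. The list had 8 to 11 genes with a row. Called in the list were 1 of 1 tested at E14, 1 of 1 at E16 and 2 of 2 at P1, all higher in HCs, and 1 higher and 2 lower of 3 at P7; of all genes tested at these ages, 4.67%, 20.0%, 40.3% and 35.6% were called higher and, at P7, 28.8% lower. No muscarinic receptor and no other serotonin receptor reached the level tested in any comparison.

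Among 18 genes of nicotinic receptor assembly and clustering, calls went in either direction, 2 higher and 1 lower of 8 tested at E14, 4 and 4 of 9 at E16, 2 and 4 of 8 at P1, and 2 and 5 of 9 at P7. Over all genes tested, in the same order, the higher calls were 4.67%, 20.0%, 40.3% and 35.6% and the lower ones 6.60%, 20.4%, 28.9% and 28.8%. Ric3, a chaperone of nicotinic receptors, was higher in HCs at E16 (25.0 against 1.54 CPM), P1 (20.4 against 1.57) and P7 (21.5 against 1.04). Lypd6b, which encodes a GPI-anchored Ly6-type modulator of nicotinic receptors, was lower in HCs at all 4 ages, at 2.51 against 73.0 CPM at P1 (-2.70, limma adjusted p = 1.08e-07). Ly6h, another gene of that family, was higher in HCs at E14, E16 and P1 (517 against 179 CPM at P1, 1.49) and lower at P7 (49.7 against 549 CPM, -3.24, limma adjusted p = 6.95e-22). Dok7, an adaptor of the muscle endplate kinase pathway, was higher in P7 HCs (25.7 against 1.28 CPM, 1.66). Ric3 and Dok7 passed the 10 CPM filter through HCs alone and Lypd6b through other cells alone, which fixed the direction of these calls. They are part of the counts above, so nothing is read from those counts. The median log2 difference of the list was -0.17, -0.23, -0.48 and -0.63 from E14 to P7. Over all genes tested the median was -0.076, -0.011, 0.12 and 0.11. The list median includes genes whose direction the filter fixed, so nothing is read from it either.

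The list of calcium-activated potassium channels and calmodulins held 14 genes. SK2 channels carry calmodulin as their calcium sensor, and the calmodulin genes Calm2 and Calm3 were higher in HCs at all 4 ages, Calm2 at 3122 against 708 CPM at P1 (2.01, limma adjusted p = 1.34e-06). Kcnmb2, a beta subunit of large-conductance channels, was higher in HCs at E16, P1 and P7 (108 against 0.164 CPM at P1). It passed the 10 CPM filter through HCs alone, which fixed its direction in the counts that follow. Counts were 3 higher of 7 tested at E14, 4 higher and 1 lower of 8 at E16, and 5 higher of 7 at P1 and at P7, where 4.67%, 20.0%, 40.3% and 35.6% of all genes tested were called higher and, at E16, 20.4% lower. Of the 10 genes of calcium release from the synaptic cistern, the store beneath the efferent synapse, the IP3 receptor gene Itpr3 was higher in HCs at E16 (30.1 against 1.15 CPM, 1.83) and P1 (106 against 0.736 CPM, 3.41), and the ryanodine receptor gene Ryr1 at P7 (103 against 0.511 CPM, 3.40, limma adjusted p = 1.92e-18). Itpr1 was lower in HCs at E16 (4.89 against 26.9 CPM). Itpr3 and Ryr1 passed the 10 CPM filter through HCs alone and Itpr1 at E16 through other cells alone, which fixed the direction of these calls. Counts were 0 of 3 tested at E14, where 1, Stim2, had an unadjusted p under 0.05 in limma, 2 higher and 1 lower of 4 at E16, 2 higher of 3 at P1 and 2 higher of 6 at P7. These numbers are small, and the P7 share is near the 35.6% of all genes tested that were called higher there. The P7 level of Ryr1 was that of OHCs, at 155.6 ± 35.7 CPM (SD, n = 2) against 1.61 ± 2.28 in IHCs (-3.83, limma adjusted p = 3.04e-15). Here too the filter was passed through 1 class alone, the OHCs, which fixed the direction.

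Between IHCs and OHCs, the calmodulin and channel list had 1 of 7 genes tested called higher in IHCs at E16, 2 of 7 at P1 and 2 of 8 at P7, and none lower, against 0.516%, 4.79% and 6.26% of all genes tested called higher. Calm2 was higher in IHCs at E16, P1 and P7 (4785 against 2725 CPM at P1, 0.81). Ly6h was higher in IHCs at P1 (755 against 448 CPM, 0.72) and P7 (90.8 against 26.7 CPM, 1.52), and Ly6e lower at P1. Of the cistern list at P7, Ryr1, Itpr1 and Itpr2 were lower in IHCs and Atp2a2, the gene of the SERCA2 calcium pump, was higher, 4 of 6 tested, where 7.27% of all genes tested were lower and 6.26% higher. Ryr1, Itpr1 and Itpr2 passed the 10 CPM filter through OHCs alone, which fixed their direction. At E16 0 of 3 genes tested of this list were called, and at P1 0 of 3. In immature P1 OHCs, Chrng, Ly6e, Ly6h, Kcnmb2 and Itpr3 were higher than in later ones.

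**Figure D5:**
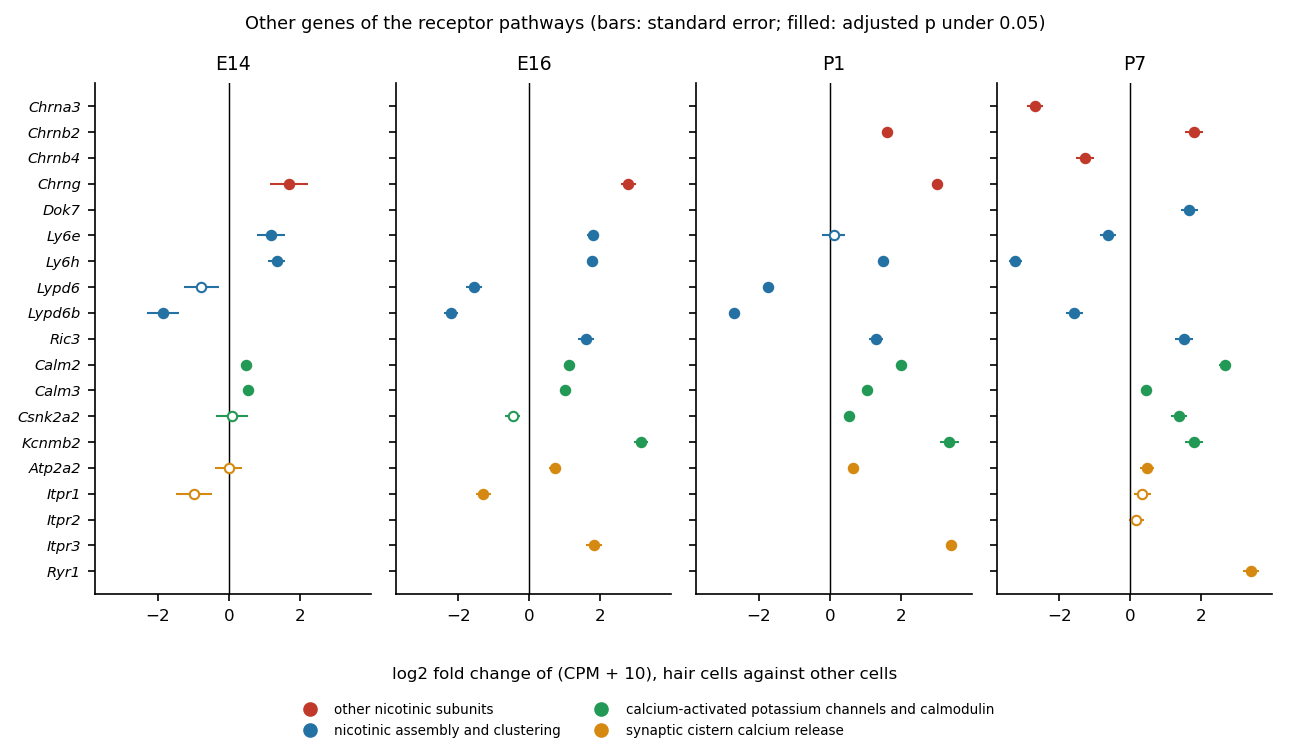
Log2 fold change of CPM + 10 between HCs and other cells for named pathway genes that were tested, 1 panel per age, with the standard error as a bar and filled points for an adjusted p under 0.05. Chrng lies at 1.70, 2.79 and 3.02 from E14 to P1 and has no point at P7, and Ly6h lies on the right at the first 3 ages and at -3.24 at P7.

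Because Chrna1, Chrnb1 and Chrng are muscle receptor genes, skeletal muscle markers were measured in the same classes. In P7 IHCs, where Chrna1 averaged 295 CPM, all 7 markers with a row were at 0. In P1 IHCs the 8 markers summed to 3.67 to 26.4 CPM per library with 1 to 5 of them detected, and in P1 OHCs to 11.9 to 63.5 CPM, ranges that overlap. In E16 HCs the sum was 107 to 136 CPM against 2.21 to 13.2 CPM in other cells, most of it Tnnc2, a fast troponin gene, at 116 CPM. Tnnc2 was lower in E16 IHCs than in OHCs (23.0 against 149 CPM) and in P1 IHCs than in OHCs (9.18 against 28.0 CPM). The part of these markers in the Chrna1 and Chrng levels was not tested. Neuron markers summed to 540 to 1096 CPM in P1 HCs and 4.17 to 6.48 CPM in other cells, and blood and immune markers reached 1360 CPM in the HCs of 1 E16 library.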

How the data were processed

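The authors aligned reads of 11 10X Chromium 3' libraries (mm10, Cell Ranger 2.1.1, per the submitters' processing notes), filtered cells and genes in Seurat 2.0 and deposited 1 table per age of natural log values, ln of 1 plus 10000 times the share of a gene in the UMIs of a cell. Whole UMIs were recovered from these values (100% whole within 2%) for gates, shares and depth; no count test was run, since the deposited unit is a log value. A gene with no row at an age is given no value there.

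The 6 genes and all gene lists were chosen with earlier results of these data known. Gate values were set after marker distributions, but not the 6 genes, had been looked at; cell types were rebuilt here and can differ from the study's. Classes under 5 cells in a library were left out. No doublet caller was run; an alternative left out HCs above the median of other cells in supporting cell markers and cells of more than 3000 genes. Means over cells per class and library, as log2(CPM + 10), were compared in limma 3.58.1 (R 4.3.3) with a mean trend and a term for the library (the block); the pairing comes from the design, as both classes are cells of 1 library. Genes averaging under 10 CPM over both classes were left out, and the Benjamini-Hochberg adjustment ran across every gene tested, with a threshold of 0.05. The p-values measure the spread between libraries, which limma draws toward that of all genes tested. Other genes gave 23.4 degrees of freedom between P1 IHCs and OHCs and 27.1 between immature and later OHCs, against 3 residual ones. At E16 they gave 18.3 and 17.1 against 2. Most of the spread behind those p-values was therefore not the gene's own. Between P1 IHCs and OHCs the library differences of Chrna10 and Kcnn2 had SDs of 0.56 and 0.53, behind SEs of 0.16 and 0.20. Shares used cells drawn down to 1500 UMIs, with exact 95% binomial intervals (scipy 1.17.1). Clusters used scanpy 1.11.5 and leidenalg 0.10.2. Scripts were tested on simulated data.

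Named genes are the 6, the most correlated genes (up to 5 each) and, per list and comparison, the called genes with the 4 largest log2 fold changes; Tnnc2, Stim2 and the clusters of the closing observations were chosen after their values were seen. Alternatives were pseudocounts of 1 and 50, no filter, no block, each library left out, UMIs pooled over a class, the mean of the deposited log values, gates 1.5 times as high, Leiden clusters as classes, the mixed-cell filter and, added after seeing the data, untyped HCs counted as OHCs. A few results on listed genes are not reported here.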

Additional observations from a re-analysis of the deposited data

Results flagged for a closer look

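Of 42 combinations of a gene and a class with 4 P1 libraries, 3 held 1 library far from the others by Dixon's ratio; chance alone flags about 1 in 20. Chrna10 in HCs was 123 CPM in the fourth library and 235 to 253 CPM in the other 3. Chrna1 was 173 CPM in the HCs and 384 CPM in the IHCs of the first library, against 61.5 to 78.4 CPM and 203 to 234 CPM in the others. The fourth P1 library is the shallowest (median 3831.5 UMIs per cell) and the first the deepest (5647.5); the part of depth in these values was not tested.

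Some differences had opposite signs at 2 ages in every library of each age. The difference between the ages was not tested in any of them. Chrna9 in IHCs minus OHCs was 64.1 CPM at E16 and -108 CPM at P7, but the IHC value of the first E16 library came from 1 cell, the second held 128 CPM in both types, the E16 direction turned in 2 alternatives and the P7 call was lost under 6. Kcnn2 in IHCs minus OHCs was 32.5 CPM at P1 and -39.4 CPM at P7. Kcnmb2 in IHCs minus OHCs was -44.3 CPM at E16 and 33.4 CPM at P7.

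Among the pathway genes, HCs minus other cells gave for Ly6h 208 CPM at E14, then 251 and 338 CPM at the next 2 ages and -499 at P7, and for Ly6e 46.7 CPM at E14, 120.3 at E16 and -11.5 at P7. Csnk2a2, a casein kinase subunit gene, gave -10.2 CPM at E16, 11.6 at P1 and 31.1 at P7. Itpr1 gave -13.9 CPM at E14, -22.0 at E16 and 5.41 at P7.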

How the results depend on the processing

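The 11 calls of the 6 genes between HCs and other cells kept their direction and their call under all alternatives run for them. The genes called passed the 10 CPM filter through HCs alone, so their direction was fixed wherever an alternative kept the filter. Of 420 log2 differences of the 6 genes under alternatives, 366 kept both or, where the main test left the gene out, stayed within the spread between libraries. These include Htr3a in E16 HCs, which was called with no filter. Of the rest, 39 lost the call, 7 gained it and 6 turned direction. The last 2, below the level tested, moved by more than the spread between libraries (Htr3a between IHCs and OHCs at E16, Chrnb1 at P1). The turns were Chrna9 between IHCs and OHCs at E16 (-0.0617 with deposited log values, -1.22 with gates 1.5 times as high) and P1 (-0.21 without mixed and large cells), and Chrnb1 between HCs and other cells at P1 (0.00167 with deposited log values, 0.0223 without mixed and large cells, and -0.23 to 0.00773 with each library left out); none of these was called. Chrnb1 in E16 HCs passed the threshold under 6 alternatives.

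Numbers of genes called moved by over 1.5 times as follows. With no filter they were 2476 for HCs against other cells at E14 (main 997; 274 higher and 2202 lower against 413 and 584), 3658 at P7 (5859), and between IHCs and OHCs 0 at E16 (73), 26 at P1 (973; 15 higher and 11 lower against 427 and 546) and 0 at P7 (1200), and 0 between immature and later OHCs (1303). Without the library block, which ignores the pairing of classes, they were 341 at E14 and 2382 at E16 (3649), 45, 211 and 423 between IHCs and OHCs, and 41 between immature and later OHCs. Without mixed and large cells they were 647 at E14, 356 between P1 IHCs and OHCs and 416 between immature and later OHCs. Between E16 IHCs and OHCs they were 32 with a pseudocount of 1, 185 with deposited log values, 139 with Leiden clusters (71 higher and 68 lower against 45 and 28), 195 with untyped HCs counted as OHCs, an alternative chosen after seeing the data, and 64 to 168 with a library left out, the highest without the first. A pseudocount of 50 gave 789 between P7 IHCs and OHCs, and leaving out a P1 library gave 861 to 1017 between immature and later OHCs, the lowest without the fourth. Deposited log values gave 586 higher and 360 lower at E14. The cause was not tested, but no filter more than doubles the genes tested.

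With 2 libraries, at E14 and P7, leaving 1 out gives values with no test. Depth limits low genes: 3 UMIs over a class were 5.73 CPM in E16 IHCs and 1.39 CPM in all E16 HCs, and in E16 HCs Chrna1 rests on 6 UMIs and Kcnn2 on 17.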

Other observations

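Outside HCs, some members stood higher in 1 cluster of cells, chosen after the values were seen and given with no test. Chrnb1 in the P1 cluster led by Otoa, a gene of interdental cells, was 33.0, 62.1, 26.6 and 45.0 CPM in the 4 libraries, against 7.61, 12.8, 9.98 and 12.7 CPM in the rest of the other cells. In the E16 cluster led by Otoa it was 27.1, 6.53 and 21.7 CPM against 5.37, 6.30 and 7.13 CPM. At P7 it was 13.8 and 12.6 CPM in a cluster led by Cnmd and Ucma, against 4.75 and 2.63 CPM.

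Htr3a in the P1 cluster led by Npy, 188 cells, was 2.72, 35.3, 39.7 and 32.3 CPM, against 0.465, 0.598, 0.488 and 0.708 CPM in the rest of the other cells, from 25 UMIs in all. The last 3 values lie within the range of Htr3a in P1 HCs and the first does not. Kcnn2 at P7 was 22.9 CPM in 1 library and 3.44 CPM in the other in a cluster led by Ibsp and Coch, against 3.74 and 4.26 CPM, so the libraries did not repeat each other there.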
